A study of Mus musculus with 12 samples.

Results

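Interferon response genes are the transcripts that cells raise when an interferon binds its receptor, and 40 of them were followed here through the kidneys of mice with methylmalonic acidemia and their controls. Each gene was taken from the probe set whose annotation gives its symbol alone, and from the brighter of several by the mean over 12 arrays. This found 36 of the 40 genes among 19934 genes in all, of which 31 of 33 are mainly type I interferon targets and 5 of 7 mainly targets of interferon gamma. Ifi44 matched no probe set, and Isg15, Igtp and Gbp2 were measured only by probe sets that a second gene shares, so their values are not given. Irf1 had 2 probe sets, and the others measured had 1 each.

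Whole kidney RNA of 12 female mice was measured, 1 array a mouse, all on a C57BL/6 background, after 2 months on a high protein diet. The 3 genotypes had 4 mice each. Mutants were Mut -/- ;TgINS-Alb-Mut. This label marks both copies of the gene of methylmalonyl-CoA mutase (now named Mmut) as mutant. It also names a Mut transgene whose name refers to the albumin promoter, which is active mainly in the liver. Controls were heterozygotes (Mut+/-) and wild-type mice (Mut+/+), and neither control label names the transgene, so its effects and those of the lost enzyme cannot be told apart. All groups ate the same diet, and no other diet was analysed here. Females were chosen because more of them survived the diet, so the arrays describe survivors. The sources used here give no age. Mmut itself lay at 8.21 to 8.47 on the log2 scale in mutants, 9.87 to 9.97 in heterozygotes and 10.47 to 10.60 in wild-type mice. Umod, a marker of the thick ascending limb of the kidney, lay at 13.17 to 13.28, 13.21 to 13.33 and 13.27 to 13.34 in the same order. Array medians over genes ran from 7.53 to 7.56, and correlations between arrays from 0.983 to 0.998. Mmut in mutants lay above these medians, and the source of its signal there was not tested. Mutant replicate 3 stood apart, with the lowest weight of the 12 arrays in limma's estimate (0.386).

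Type I interferons (interferon alpha and beta) act through the receptor chains Ifnar1 and Ifnar2 and the kinases Jak1 and Tyk2. These activate the complex ISGF3, which includes Stat2 and Irf9 and binds the interferon-stimulated response element (ISRE) of antiviral genes. Interferon gamma acts through Ifngr1 and Ifngr2 with Jak1 and Jak2, and its targets often carry the gamma-activated site (GAS). Many genes answer to both, so a split into type I and gamma targets is one of degree. Many tissues keep a low level of these transcripts without infection.

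The promoters of the members were searched because these elements are the known link between such genes and interferon signalling. RefSeq promoter windows of assembly GRCm38.p6, from 250 bases before to 50 after a start site, were given for 30 of the 40 genes, 5 of them with several windows. An ISRE core, searched on both strands as GAAA, any 2 bases and GAAA again, stood in 17 of the 30 genes (56.67%), against 1079 of 27025 genes with a promoter in the table (3.99%). By class it stood in 12 of 23 type I targets and 5 of 7 gamma targets. The GAS, searched as TTCNNNGAA, which reads alike on both strands, stood in 7 of the 30 (23.33%), against 2582 of the 27025 (9.55%). By class it stood in 5 of 23 type I targets and 2 of 7 gamma targets. Neither motif contains the other, and both matched in Bst2, Eif2ak2, Igtp and Oas1a. In Bst2 these matches overlap. A match describes letters, and not binding in these kidneys. Among genes lower in mutants 4 of 7 with a window held the ISRE core, and among measured members not called 10 of 19 did.

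Shown first are 4 genes that fell in mutants and hold the ISRE core, then Oas3, which holds it and was not called, and the Irf1 window with the GAS. Each runs 5′ to 3′ in the direction of transcription, and capitals mark the ISRE core, or the GAS in Irf1. Overlapping cores run together.
Ifit1 (chr19:34640639-34640938, + strand): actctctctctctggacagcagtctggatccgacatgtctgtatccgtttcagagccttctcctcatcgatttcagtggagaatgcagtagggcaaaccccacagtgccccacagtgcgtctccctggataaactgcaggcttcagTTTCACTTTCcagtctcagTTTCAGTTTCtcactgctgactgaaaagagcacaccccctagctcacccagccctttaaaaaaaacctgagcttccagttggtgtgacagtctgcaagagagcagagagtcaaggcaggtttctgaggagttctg
Ifit3 (chr19:34583279-34583578, + strand): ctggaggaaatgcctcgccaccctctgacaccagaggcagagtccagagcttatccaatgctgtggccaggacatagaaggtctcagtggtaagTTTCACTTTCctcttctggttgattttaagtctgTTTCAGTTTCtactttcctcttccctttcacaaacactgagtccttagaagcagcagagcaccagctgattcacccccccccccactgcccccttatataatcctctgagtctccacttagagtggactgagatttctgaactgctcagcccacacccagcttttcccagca
Ifih1 (chr2:62646206-62646505, - strand): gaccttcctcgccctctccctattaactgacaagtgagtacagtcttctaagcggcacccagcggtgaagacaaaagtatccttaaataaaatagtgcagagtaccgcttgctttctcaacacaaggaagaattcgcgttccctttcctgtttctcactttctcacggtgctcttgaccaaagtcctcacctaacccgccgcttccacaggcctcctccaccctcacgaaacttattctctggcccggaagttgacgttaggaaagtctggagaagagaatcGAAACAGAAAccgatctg
Gbp3 (chr3:142559794-142560093, + strand): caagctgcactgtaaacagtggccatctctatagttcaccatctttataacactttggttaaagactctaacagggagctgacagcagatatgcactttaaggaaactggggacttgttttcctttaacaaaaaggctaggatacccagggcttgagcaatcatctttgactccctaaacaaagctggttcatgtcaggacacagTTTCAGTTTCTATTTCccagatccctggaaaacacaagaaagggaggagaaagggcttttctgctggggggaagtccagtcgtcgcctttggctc
Oas3 (chr5:120777610-120777909, - strand): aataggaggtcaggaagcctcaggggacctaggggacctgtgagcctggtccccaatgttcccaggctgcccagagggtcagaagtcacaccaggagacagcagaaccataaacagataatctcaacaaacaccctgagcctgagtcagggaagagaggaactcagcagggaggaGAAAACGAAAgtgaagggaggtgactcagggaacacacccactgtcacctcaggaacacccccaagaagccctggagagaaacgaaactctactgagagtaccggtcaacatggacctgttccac
Irf1 (chr11:53769764-53770063, + strand): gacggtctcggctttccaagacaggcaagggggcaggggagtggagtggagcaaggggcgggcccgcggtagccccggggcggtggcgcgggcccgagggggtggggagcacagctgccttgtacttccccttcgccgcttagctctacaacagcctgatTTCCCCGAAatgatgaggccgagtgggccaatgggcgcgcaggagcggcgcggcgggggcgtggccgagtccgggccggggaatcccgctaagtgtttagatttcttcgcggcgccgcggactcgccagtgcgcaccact

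Counted from the start site, the cores of Ifit1 span positions -104 to -95 and -85 to -76, and those of Ifit3 -156 to -147 and -122 to -113. The Gbp3 pair overlaps, at -45 to -36 and -39 to -30. In Ifih1 the core lies after the start site, at 33 to 42.

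**Figure D1:**
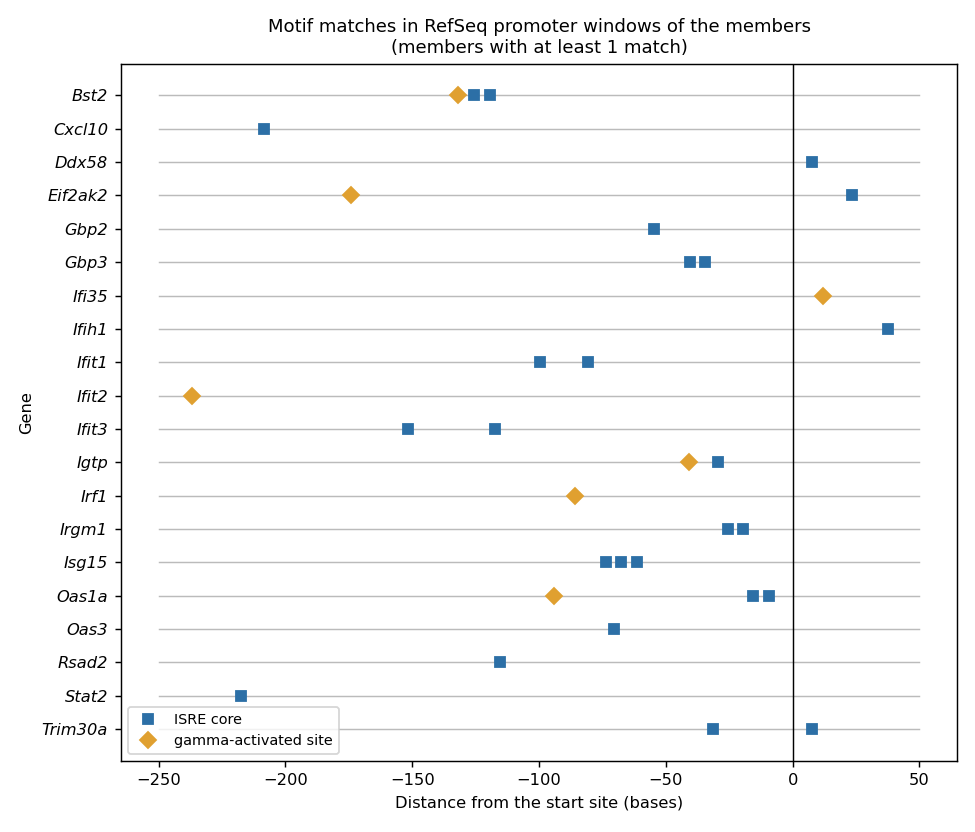
Matches to the ISRE core (squares) and the gamma-activated site (diamonds) in the members' promoter windows, by distance in bases from the start site, for members with at least 1 match. Lines span the window from 250 bases before to 50 after the start. Isg15 has 3 overlapping ISRE cores, the most of any member shown.

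Between mutant and wild-type kidneys every member that was called was lower in mutants. Of 36 measured, 9 fell in mutants and 0 rose, at an adjusted p under 0.05 with limma over all 19934 genes. Over all genes 6.69% fell and 2.96% rose. At an unadjusted p under 0.05, 16 members were lower and 0 higher, against 15.2% and 9.25% of all genes. All 4 mutants lay below all 4 wild-type arrays in 11 members, against 9.4% of all genes. The members' median log2 fold change was -0.16, against 0.00 over all genes. The fallers were Ifit3, Ifit1, Rtp4, Gbp3, Ifit2, Usp18, Ifih1, Oasl2 and Irf7, by 1.34-fold to 1.73-fold. Without mutant replicate 3, the lowest array in most of them, 8 fell. These counts describe the list, which was chosen with earlier results of these data known. In RNA of a whole organ, fewer cells of a type and less RNA per cell cannot be told apart.

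**Figure D2:**
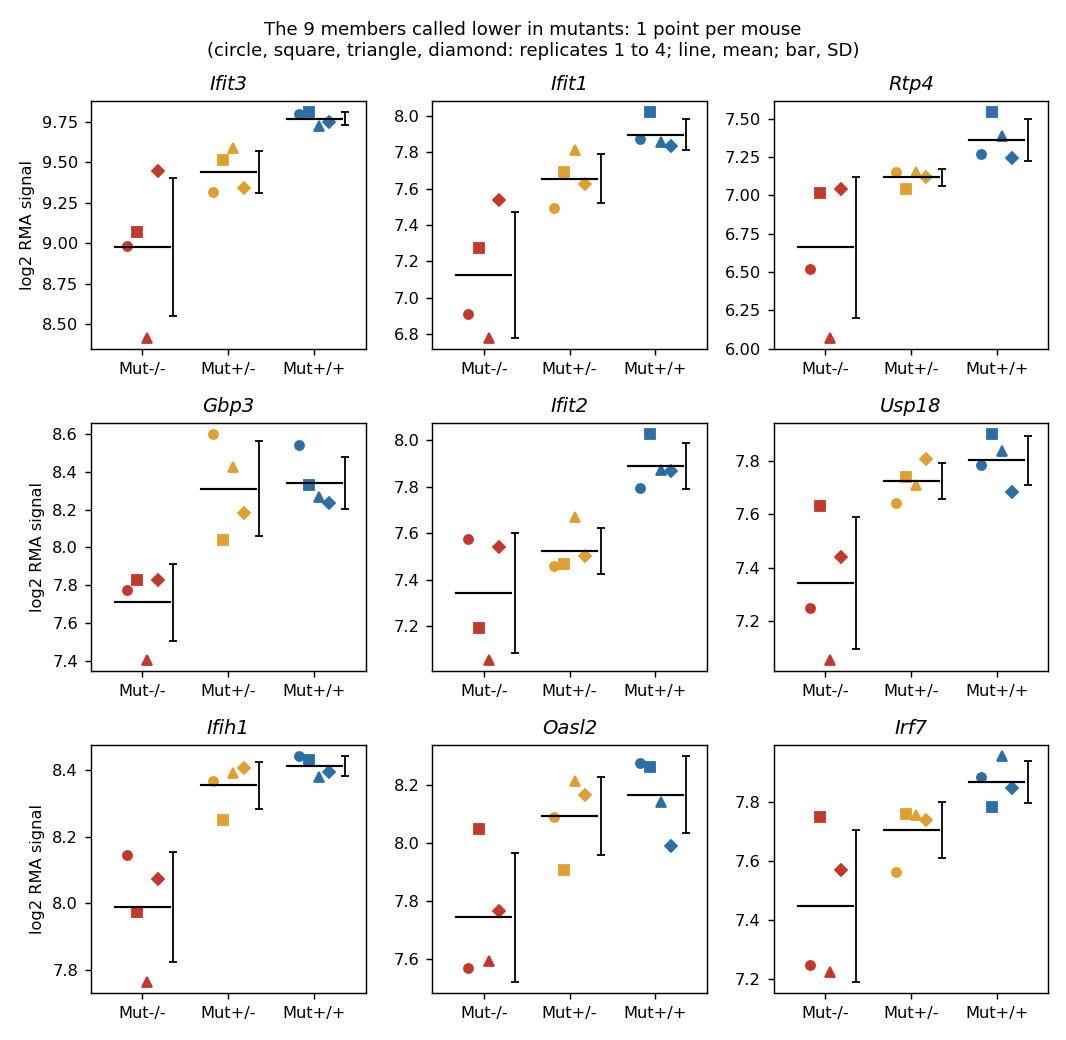
Log2 RMA signal of the 9 members called lower in mutants, 1 point per mouse, by genotype, with mean and SD. Mutant replicate 3 (triangle) is the lowest point in 8 of the 9 panels, and the wild-type SD is smaller than the mutant SD in all 9.

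Of the 3 transcription factors measured 1 fell, where 6.69% of all genes did. Irf7, which drives the later wave of type I interferon genes, read 7.25, 7.75, 7.22 and 7.57 in mutants 1 to 4, 7.56, 7.76, 7.76 and 7.74 in heterozygotes and 7.88, 7.78, 7.96 and 7.85 in wild-type mice. All mutants lay below all wild-type arrays, while mutant replicates 2 and 4 reached the heterozygote range. Irf7 was 1.34-fold lower in mutants than in wild type (log2 difference -0.42 ± 0.10 SE, adjusted p = 0.0203). Leaving out wild type replicate 3 or 4 ended its call (highest adjusted p 0.0593). Stat2 and Irf9, both parts of ISGF3, differed by -0.16 and -0.15 on the log2 scale and were not called (adjusted p = 0.182 and 0.26).

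Of 3 cytosolic sensors of viral RNA 1 fell, where 6.69% of all genes did. Ifih1 (MDA5, a sensor of long double-stranded RNA) read 8.14, 7.97, 7.76 and 8.07 in mutants 1 to 4, 8.37, 8.25, 8.39 and 8.41 in heterozygotes and 8.44, 8.43, 8.38 and 8.40 in wild-type mice. Mutants lay apart from both control groups, and wild-type mice were the most alike. The fall was 1.34-fold (log2 difference -0.42 ± 0.07 SE, adjusted p = 0.00303), and it stayed called whichever array was left out. Ddx58 (RIG-I, which recognises 5′ triphosphate RNA) differed from wild type by -0.18 on the log2 scale (adjusted p = 0.124). It was called only without mutant replicate 4 (adjusted p = 0.0357). Dhx58, a regulatory helicase of this family, differed by -0.01 (adjusted p = 0.936), with a sign that turned when any 1 of 3 arrays was left out.

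The IFIT proteins bind foreign RNA and block its translation, and Ifit3 and Ifit1 showed the largest falls among the 36 members. Ifit3 read 8.98, 9.07, 8.42 and 9.44 in mutants 1 to 4, 9.32, 9.51, 9.59 and 9.34 in heterozygotes and 9.80, 9.81, 9.72 and 9.75 in wild-type mice. The mutants spanned 8.42 to 9.44, below every wild-type array, and mutant replicate 4 lay inside the heterozygote range. Ifit3 was 1.73-fold lower in mutants (log2 difference -0.79 ± 0.15 SE, adjusted p = 0.00671).

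Ifit1 read 6.91, 7.27, 6.78 and 7.54 in mutants 1 to 4, 7.49, 7.69, 7.81 and 7.62 in heterozygotes and 7.87, 8.02, 7.85 and 7.83 in wild-type mice. Again each mutant lay below each wild-type array, with replicates 1 and 3 lowest. The difference was 1.71-fold (log2 difference -0.77 ± 0.13 SE, adjusted p = 0.00331).

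For Ifit2 the values were 7.58, 7.19, 7.06 and 7.54 in mutants 1 to 4, 7.46, 7.47, 7.67 and 7.50 in heterozygotes and 7.79, 8.03, 7.87 and 7.87 in wild-type mice. Here the heterozygotes lay with the mutants, and all 8 were below the wild-type mice. Ifit2 was 1.46-fold lower in mutants than in wild type (log2 difference -0.55 ± 0.10 SE, adjusted p = 0.00615). All 3 IFIT calls held whichever array was left out. Ifit2 and Ifit3 are neighbours in the genome, and the arrays may not separate Ifit3 fully from its close copy Ifit3b.

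Rtp4, an interferon-induced chaperone of receptors on their way to the cell surface, read 6.52, 7.01, 6.07 and 7.04 in mutants 1 to 4, 7.15, 7.04, 7.16 and 7.12 in heterozygotes and 7.27, 7.54, 7.39 and 7.25 in wild-type mice. Mutants lay below every wild-type array, and below every heterozygote, narrowly in replicate 4. The fall was 1.63-fold (log2 difference -0.70 ± 0.17 SE, adjusted p = 0.0181). Among the called members, mutants varied most here, where their SD was 0.46 (n = 4), that of heterozygotes 0.05 and that of wild-type mice 0.14. Without wild type replicate 2 the call ended (adjusted p = 0.0616).

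Usp18, which strips Isg15 from proteins and also restrains signalling from Ifnar2, read 7.25, 7.63, 7.06 and 7.44 in mutants 1 to 4, 7.64, 7.74, 7.71 and 7.81 in heterozygotes and 7.79, 7.90, 7.84 and 7.68 in wild-type mice. The mutants were apart from both control groups. Usp18 was 1.37-fold lower than in wild type (log2 difference -0.46 ± 0.10 SE, adjusted p = 0.011), and this held whichever array was left out.

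The OAS family is named for enzymes that make an oligoadenylate messenger, which switches on RNase L. Not every member need do so, and 1 of 5 measured was called lower, where 6.69% of all genes were. Oasl2 read 7.57, 8.05, 7.59 and 7.77 in mutants 1 to 4, 8.09, 7.91, 8.21 and 8.16 in heterozygotes and 8.28, 8.26, 8.14 and 7.99 in wild-type mice. Mutant replicate 2 overlapped the controls, and the other mutants lay below them. Oasl2 was 1.34-fold lower than in wild type (log2 difference -0.42 ± 0.10 SE, adjusted p = 0.0221), a call lost when mutant replicate 1 or 3 or wild type replicate 1 or 2 was left out (highest adjusted p 0.0696). Oas2 differed by -0.34 (adjusted p = 0.134), and was called only without mutant replicate 2 (adjusted p = 0.03). Oas1a, Oas3 and Oasl1 had differences of 0.13, 0.10 and 0.03 and were not called (adjusted p = 0.609, 0.51 and 0.836). The 95% interval of the difference ran from -0.08 to 0.29 for Oas3. Oasl1 lies next to Oasl2 in the genome, and Oas3 next to Oas2. The sign of Oasl1 turned without wild type replicate 4.

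Of 16 IFIT and other antiviral effectors 4 fell (25%), Rtp4 and the 3 IFIT genes, where 6.69% of all genes did. The others mostly lay below wild type without a call. Samd9l, a restriction factor of poxviruses, and Xaf1, a promoter of cell death, differed by -0.39 and -0.29 (adjusted p = 0.07 and 0.0905), and in both all 4 mutants lay below all 4 wild-type arrays. Samd9l was called without mutant replicate 1 or 4 (adjusted p = 0.0428 and 0.0298), and Xaf1 without mutant replicate 4 (adjusted p = 0.0446). Trim30a, of the tripartite motif family, read 7.61, 8.24, 6.99 and 8.22 in the 4 mutants and 8.01 to 8.36 in wild-type mice, a difference of -0.44 (adjusted p = 0.23). Rsad2 (viperin, which blocks viral replication) read 8.31, 8.82, 7.33 and 8.18 in mutants and 8.44 to 8.58 in wild type (adjusted p = 0.397). In both genes mutant replicate 3 was far below wild type and mutant replicate 2 was not. Mx1, whose gene is known to be defective in C57BL/6 mice, differed by 0.04, and its sign turned without wild type replicate 4. Bst2 (tetherin, which holds budding virus at the cell surface) differed by -0.08, and Lgals3bp, a secreted glycoprotein that binds galectins, by -0.05. The remaining 5, which are Mx2, Ifi35, Ifi27l2a, Zbp1 (a sensor of Z-form nucleic acid) and Eif2ak2 (PKR, which halts translation), ran from -0.14 to -0.07 and were not called with all 12 arrays. Mx2 was called without wild type replicate 3 (adjusted p = 0.0395).

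Parp9 and Dtx3l form an ADP-ribosylation and ubiquitin ligase pair, and they lie side by side with Parp14 in the genome. Parp9, the member of this group with the smallest p, read 7.70, 7.81, 7.64 and 7.88 in mutants 1 to 4, 7.94, 7.71, 7.93 and 7.87 in heterozygotes and 7.96, 7.998, 7.85 and 7.86 in wild-type mice. The groups overlapped at the upper mutant and the lower wild-type values. It differed by -0.16 (SE 0.07, adjusted p = 0.157), Parp14 by -0.18 and Dtx3l by -0.07, none of them called by limma. At an unadjusted p under 0.05, 1 of the 3 was lower, where 15.2% of all genes were.

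Of the gamma targets 1 of 5 fell, where 6.69% of all genes did. Gbp3, a guanylate-binding GTPase that acts on membranes of intracellular pathogens, read 7.78, 7.83, 7.41 and 7.83 in mutants 1 to 4, 8.60, 8.04, 8.42 and 8.18 in heterozygotes and 8.54, 8.33, 8.26 and 8.24 in wild-type mice. Mutants lay apart from both control groups, and mutant replicate 3 stood below the other mutants. Gbp3 was 1.55-fold lower than in wild type (log2 difference -0.63 ± 0.12 SE, adjusted p = 0.0067), and the call held whichever array was left out. Irgm1, an immunity-related GTPase, differed by -0.11 (adjusted p = 0.515).

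Irf1, the transcription factor that interferon gamma induces directly, read 7.66, 7.61, 7.70 and 7.73 in mutants 1 to 4, 7.92, 7.59, 7.92 and 7.70 in heterozygotes and 7.85, 7.85, 7.87 and 7.79 in wild-type mice. Every mutant was below every wild-type array, but the difference of -0.16 was not called (SE 0.07, adjusted p = 0.173). Its second, dimmer probe set differed by -0.06. For Cxcl10, a chemokine that draws T cells, the values were 7.31, 7.44, 7.45 and 7.48 in mutants 1 to 4, 7.51, 7.47, 7.74 and 7.83 in heterozygotes and 7.62, 7.85, 7.36 and 7.51 in wild-type mice. The groups overlapped, with a difference of -0.16 (SE 0.10, adjusted p = 0.363). Cxcl9, the related chemokine, spanned 7.22 to 8.90 within the mutants, and its sign turned from -0.25 to 0.05 without mutant replicate 3.

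Set side by side, 8 of 31 type I targets (25.8%) and 1 of 5 gamma targets (20%) fell between mutant and wild type. None of either class rose, and over all genes 6.69% fell and 2.96% rose. The median log2 fold changes of type I and gamma targets were -0.16 and -0.16, against 0.00 over all genes. All mutants lay below all wild-type arrays in 9 type I targets (29%) and 2 gamma targets (40%), against 9.4% of all genes. With 5 gamma targets these shares have little weight, and no difference between the classes was tested. In each array the mean deviation of the 31 type I targets from their 12-array means was -0.18, -0.01, -0.35 and -0.04 in mutants 1 to 4. In wild-type mice it ran from 0.03 to 0.14, and in heterozygotes from 0.00 to 0.12. For the 5 gamma targets it was -0.15, -0.15, -0.44 and 0.03 in mutants, -0.14 to 0.33 in heterozygotes and -0.01 to 0.17 in wild type. In both classes mutant replicate 3 was the lowest array of all 12. It held the lowest value of 22 of the 36 members, and of 8 of the 9 that fell. Without that array 8 members were called lower, Oasl2 being the one lost.

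**Figure D3:**
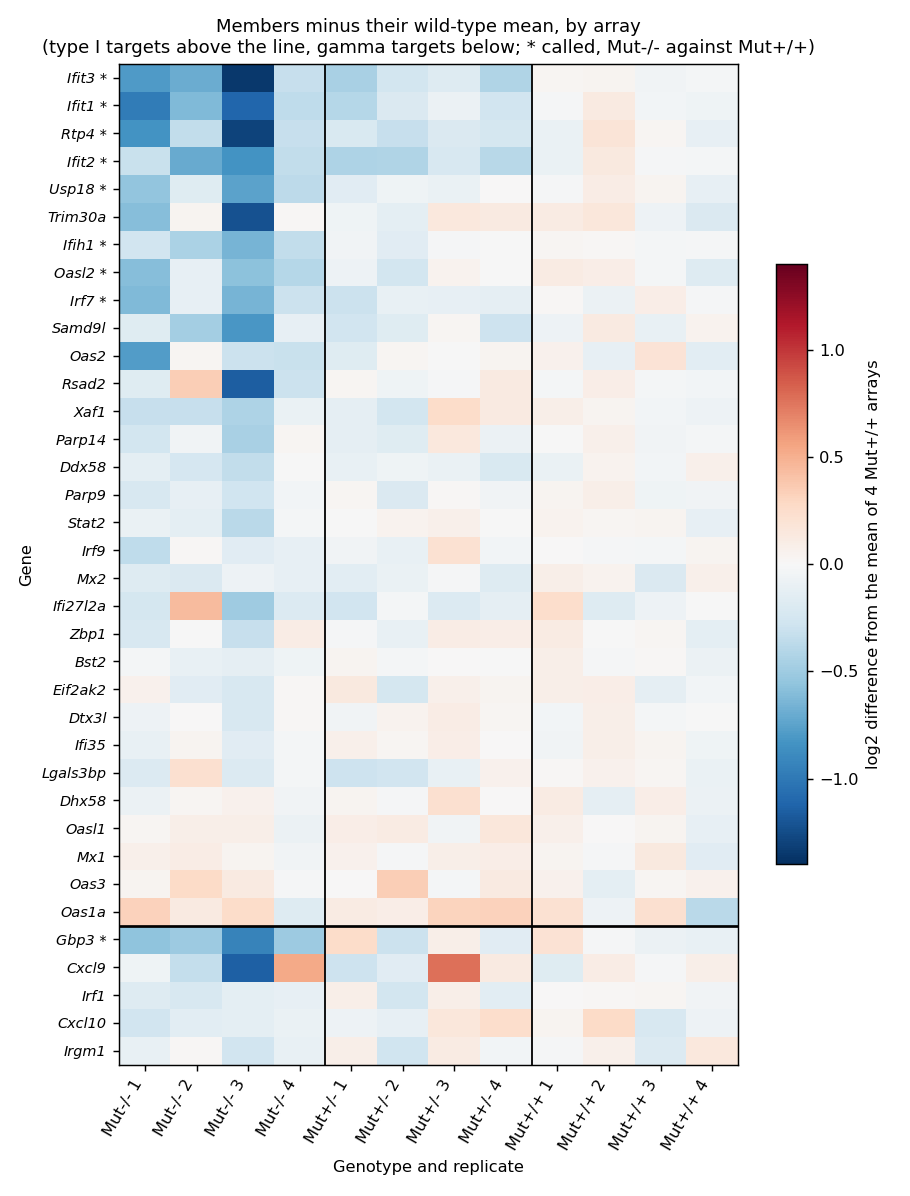
Log2 difference of each member from its wild-type mean on each of the 12 arrays, with type I targets above the line and gamma targets below, ordered by the difference between mutant and wild type. Blue is below the wild-type mean, and the column of mutant replicate 3 is the darkest, with -1.35 in Ifit3.

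Mutants against heterozygotes gave fewer calls, with 2 of 36 members lower and 0 higher by limma, where 1.46% of all genes were lower and 1.07% higher. At an unadjusted p under 0.05, 12 members were lower and 0 higher, against 9.11% and 6.3% of all genes. One of the 2 was Ifih1, 1.29-fold lower (log2 difference -0.37 ± 0.07 SE, adjusted p = 0.0175). The other was Gbp3, 1.52-fold lower (log2 difference -0.60 ± 0.12 SE, adjusted p = 0.0211). In both, no mutant array overlapped a heterozygote. Ifih1 lost its call without heterozygote replicate 1, 3 or 4, and Gbp3 without heterozygote replicate 1 or 3 (highest adjusted p 0.061 and 0.0651). Ifit1 differed by -0.53 (adjusted p = 0.0528), Usp18 by -0.38 (adjusted p = 0.0614) and Ifit3 by -0.46 (adjusted p = 0.146). All 4 mutants lay below all 4 heterozygotes in 6 members, against 5.65% of all genes. Beside the called pair these were Stat2, Bst2, Rtp4 and Usp18. The median log2 fold change was -0.13 for type I targets and -0.22 for gamma targets, against -0.01 over all genes, and without mutant replicate 3 it was -0.08 and -0.11. The count of members lower was 0 without heterozygote replicate 1 or 3 and 1 without heterozygote replicate 4. It was 5 without mutant replicate 2, 4 without mutant replicate 4 and 0 in a fit of these genotypes alone. Over all genes, calls in either direction numbered 506 with all arrays and 235 without heterozygote replicate 1. They numbered 529 without mutant replicate 2 and 592 without mutant replicate 4.

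Between heterozygotes and wild-type mice 0 of 36 members were called by limma in either direction, and 0.0702% of all genes were lower and 0.0652% higher. At an unadjusted p under 0.05 the count was 1 lower and 0 higher, against 6.81% and 4.5% of all genes. That gene was Ifit2, at -0.37 (SE 0.10, adjusted p = 0.217, 95% interval -0.59 to -0.14). A fit of these genotypes alone called it (adjusted p = 0.039). All 4 heterozygotes lay below all 4 wild-type mice in 5 members, namely Ifit1, Ifit2, Ifit3, Rtp4 and Irf7, against 5.26% of all genes, and in none did they lie above. Ifit3 differed by -0.33 (95% interval -0.66 to 0.00), Rtp4 by -0.24 (-0.60 to 0.11) and Ifit1 by -0.24 (-0.52 to 0.04). For Ifih1 and Gbp3 these values were -0.06 (-0.21 to 0.10) and -0.03 (-0.30 to 0.23). The medians of type I and gamma targets were -0.03 and -0.03, against 0.01 over all genes. As single arrays were left out they ran from -0.07 to 0.00 and from -0.08 to 0.06, so the gamma median had no stable sign. Group means ran in the order mutant, heterozygote, wild type in 18 of the 36 members, and mutant, wild type, heterozygote in 12. The comparisons share groups, so these counts are not independent of each other.

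**Figure D4:**
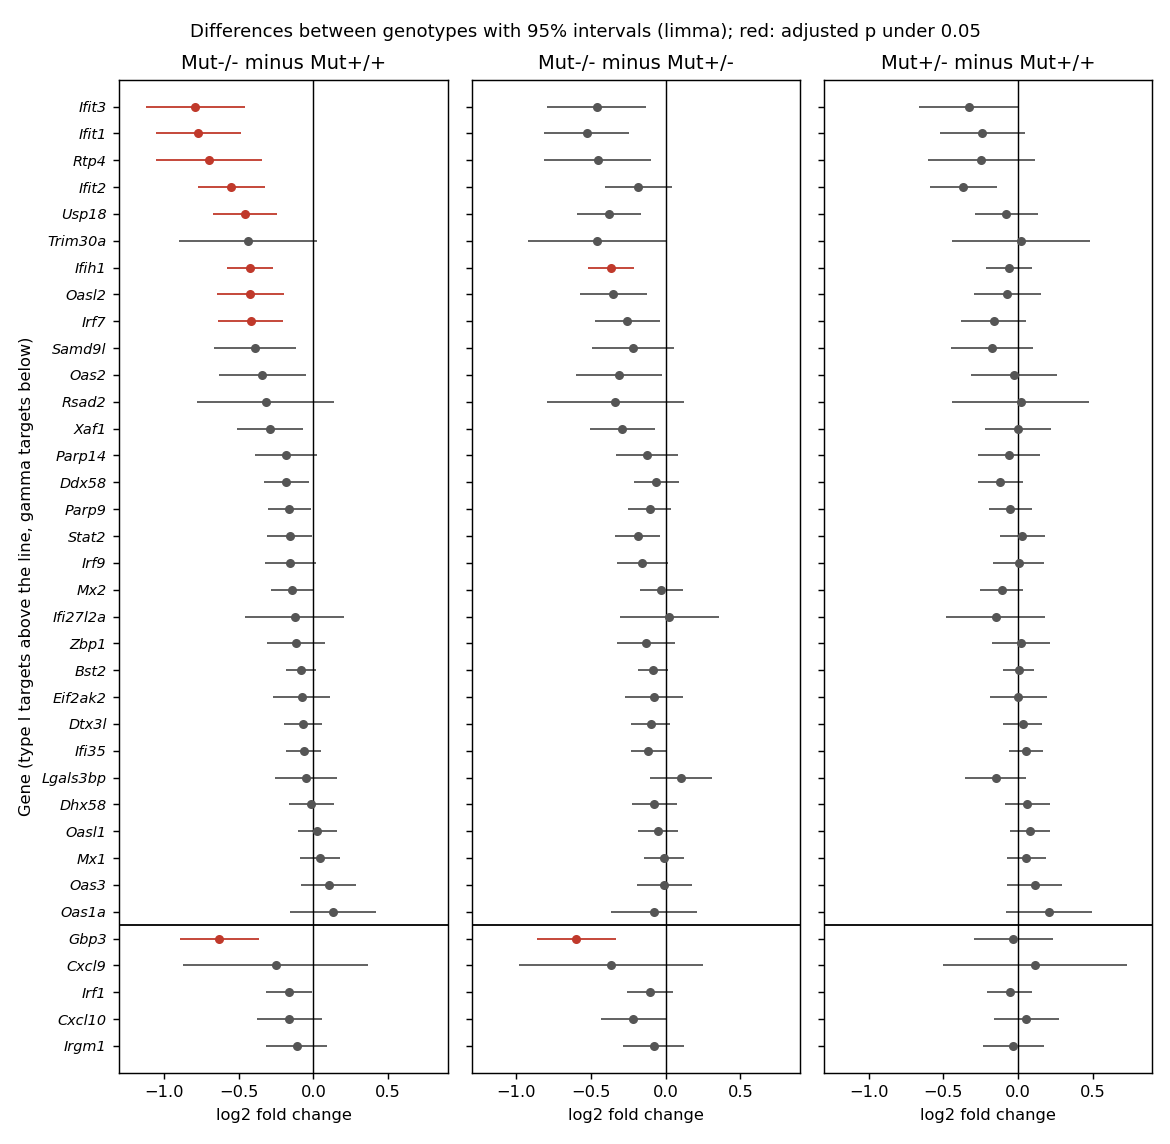
Log2 fold change of each of the 36 members, with its 95% interval from limma, for the 3 comparisons. Red marks an adjusted p under 0.05, which 9 members reach in mutants against wild type, 2 in mutants against heterozygotes and 0 in heterozygotes against wild type.

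The pathway upstream was read from lists written for this comparison, with 113 of 131 genes measured. Over all of them 15 were lower (13.3%) and 2 higher in mutants than in wild type by limma, against 6.69% and 2.96% of all genes. At an unadjusted p under 0.05, 34 were lower and 11 higher, against 15.2% and 9.25%. In mutants against heterozygotes 5 were lower (4.42%) and 0 higher by limma, where 1.46% and 1.07% of all genes were. Of the interferons themselves 16 of 21 were measured and 0 were called by limma, with 1 higher and 0 lower at an unadjusted p under 0.05. Ifnb1 lay at 5.88 ± 0.12 (SD, n = 4) in mutants and 5.85 ± 0.09 in wild type, and Ifng at 6.58 ± 0.06 and 6.57 ± 0.05. Whether these levels are above background was not determined. Of 6 receptor chains 1 was called and rose. Ifngr2, the signalling chain of the gamma receptor, read 10.35, 10.53, 10.62 and 10.51 in mutants 1 to 4, 10.35, 10.22, 10.29 and 10.32 in heterozygotes and 10.33, 10.27, 10.19 and 10.26 in wild-type mice. It was 1.18-fold higher in mutants than in wild type (log2 difference 0.24 ± 0.06 SE, adjusted p = 0.0212), which did not hold when mutant replicate 3 or wild type replicate 2, 3 or 4 was left out (highest adjusted p 0.0624), nor in a fit of these genotypes alone.

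Of 3 kinases 1 fell, where 6.69% of all genes did. Jak2, which works on that same chain, read 8.52, 8.51, 8.46 and 8.55 in mutants 1 to 4, 8.83, 8.67, 8.79 and 8.90 in heterozygotes and 8.75, 8.93, 8.84 and 8.86 in wild-type mice. Mutants lay apart from both control groups. Jak2 was 1.26-fold lower than in wild type (log2 difference -0.33 ± 0.06 SE, adjusted p = 0.00326), and 1.22-fold lower than in heterozygotes (log2 difference -0.29 ± 0.06 SE, adjusted p = 0.0191). The second of these ended without heterozygote replicate 1, 3 or 4 (adjusted p up to 0.0678). Jak1 and Tyk2 were not called. None of 6 inhibitors was called by limma. At an unadjusted p under 0.05, 1 was higher and 1 lower, against 9.25% and 15.2% of all genes.

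Among 13 genes of sensing and induction 2 fell (15.4%) and 0 rose, against 6.69% and 2.96% of all genes. Tlr3, the endosomal receptor for double-stranded RNA, was 1.27-fold lower in mutants than in wild type (log2 difference -0.34 ± 0.08 SE, adjusted p = 0.0137). Mavs, the mitochondrial adaptor that Ifih1 and Ddx58 signal through, was 1.19-fold lower (log2 difference -0.25 ± 0.06 SE, adjusted p = 0.0185). In both, all mutants lay below all wild-type arrays. The Mavs call was lost without wild type replicate 2 or 4 (highest adjusted p 0.0651) and in a fit of these genotypes alone.

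Other interferon-induced effectors fell in 10 of 47 cases (21.3%) and rose in 0, against 6.69% and 2.96% of all genes. Herc6, the mouse ligase that joins Isg15 to proteins, read 7.09, 7.31, 6.91 and 7.53 in mutants 1 to 4, 7.61, 7.62, 7.74 and 7.67 in heterozygotes and 7.88, 8.09, 8.09 and 8.10 in wild-type mice. The 3 genotypes did not overlap. Herc6 was 1.78-fold lower in mutants than in wild type (log2 difference -0.83 ± 0.10 SE, adjusted p = 0.000523), and this call held whichever array was left out. Against heterozygotes it was 1.36-fold lower (adjusted p = 0.0411), a call lost when any 1 of 9 arrays was left out (highest adjusted p 0.109). Cmpk2, a mitochondrial nucleotide kinase, was 1.34-fold lower than in wild type (log2 difference -0.43 ± 0.08 SE, adjusted p = 0.00409), and Phf11d 1.33-fold (adjusted p = 0.00932). Ifi203, of the family of interferon-induced nuclear proteins that bind DNA, was 1.96-fold lower (adjusted p = 0.0427), with single mutants from 7.18 to 9.11. Slfn5, of the Schlafen family, was 1.61-fold lower (adjusted p = 0.045) and Ifit3b 1.56-fold (adjusted p = 0.0206). The Ifi203 call was lost when any 1 of 10 arrays was left out, that of Slfn5 with any 1 of 9 and that of Ifit3b with wild type replicate 3 or 4 (highest adjusted p 0.103, 0.113 and 0.0639). The remaining effectors lower than in wild type were Pnpt1, Znfx1, Ddx60 and Parp12. Their calls, and those of Cmpk2 and Phf11d, held whichever array was left out (highest adjusted p 0.0378). Against heterozygotes Cmpk2 (-0.34, adjusted p = 0.031) and Znfx1 (-0.22, adjusted p = 0.0429) were lower as well, calls that any 1 of 5 and 10 arrays ended. No gene of these lists was called between heterozygotes and wild type by limma. At an unadjusted p under 0.05, 5 of 113 were higher and 8 lower, near the 4.5% and 6.81% of all genes.

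Of 23 other gamma-induced genes 2 were lower (8.7%) and 1 higher by limma, near the shares of all genes, 6.69% and 2.96%. At an unadjusted p under 0.05, 5 were higher and 5 lower, against 9.25% and 15.2% of all genes. Gbp4, a relative of Gbp3, read 6.94, 7.10, 6.09 and 7.45 in mutants 1 to 4, 7.63, 7.59, 7.85 and 7.56 in heterozygotes and 7.65, 8.04, 7.87 and 7.92 in wild-type mice. Mutants were below both control groups, with replicate 3 lowest by far. Gbp4 was 1.97-fold lower than in wild type (log2 difference -0.98 ± 0.21 SE, adjusted p = 0.0109), and Gbp7, of the same family, 1.31-fold lower (log2 difference -0.39 ± 0.09 SE, adjusted p = 0.0146). Psme1, a subunit of the proteasome activator PA28, was 1.25-fold higher (log2 difference 0.33 ± 0.05 SE, adjusted p = 0.00211), with all mutants above all controls. These 3 calls held whichever array was left out. Cxcl11, a chemokine of the same receptor as Cxcl9 and Cxcl10, was called only against heterozygotes, 1.22-fold lower (adjusted p = 0.0375), and that call was lost when any 1 of 9 arrays was left out (highest adjusted p 0.103). The guanylate-binding genes are close relatives, and their probe sets may read each other's transcripts.

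Some markers of other cells also differed between mutants and wild type, where 6.69% of all genes fell and 2.96% rose. Of 10 endothelial markers 4 fell in mutants and 0 rose, and their mean lay at 9.38, 9.38, 9.02 and 9.39 in mutants 1 to 4, against 9.40 to 9.58 in heterozygotes and 9.52 to 9.65 in wild type. Mutant replicate 3 was the lowest array in this list too. The 4 were Ehd3 (-0.57), Emcn (-0.62), Eng (-0.40) and Cdh5 (-0.38), of which Eng and Cdh5 lost their calls when any 1 of 4 and 3 arrays was left out (highest adjusted p 0.0843 and 0.0644). Of 8 dendritic cell markers 1 fell, Clec9a of cross-presenting dendritic cells, at 6.12, 5.81, 5.60 and 6.31 in mutants and 6.36 to 6.66 in wild type (adjusted p = 0.0351). That call was lost when any 1 of 6 arrays was left out (highest adjusted p 0.108). The mean of the list lay at 6.44 to 6.88 in mutants, 6.68 to 6.77 in heterozygotes and 6.59 to 6.70 in wild type. Siglech, a marker of plasmacytoid dendritic cells, differed by -0.01 (adjusted p = 0.946).

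Of 11 macrophage markers 2 rose, Lyz2 and Cd68, and 1 fell, Csf1r, the receptor of the growth factor on which macrophages depend. The other 10 all lay above wild type, and the median log2 fold change of the list was 0.20. At an unadjusted p under 0.05, 4 were higher and 1 lower, against 9.25% and 15.2% of all genes. The mean of the macrophage list lay at 7.72 to 8.50 in mutants, 7.78 to 8.26 in heterozygotes and 7.68 to 7.92 in wild type. Csf1r read 8.86, 8.82, 7.96 and 8.64 in mutants and 9.10 to 9.27 in wild type (adjusted p = 0.0171), and its call ended without wild type replicate 2 or 4 (adjusted p up to 0.053). The calls of Lyz2 and Cd68 were lost when any 1 of 5 and 6 arrays was left out (highest adjusted p 0.0847 and 0.111). Csf1r and Clec9a were also lower than in heterozygotes (adjusted p = 0.0319 and 0.0278), calls that leaving out any 1 of 5 and 4 arrays ended. Of 9 tubule and glomerulus markers 2 fell, Slc12a3 of the distal tubule (-0.34) and Nphs1 of podocytes (-0.27). Averaged over its probe sets Nphs1 differed by -0.10 and was not called (adjusted p = 0.37). Against heterozygotes 2 of these 9, Slc12a3 and Nphs1, and 1 of 10 endothelial markers, Ehd3, were lower by limma, where 1.46% of all genes were. These calls held whichever array was left out (highest adjusted p 0.0383, 0.0358 and 0.0442). A fit of mutants and heterozygotes alone ended that of Slc12a3 (adjusted p = 0.0529), and averaging probe sets that of Nphs1 (adjusted p = 0.402). Neutrophil markers were high in mutant replicate 2 alone, at a mean of 7.57 against 5.78 to 6.07 on the other arrays, and 0 of 5 were called by limma, also at an unadjusted p under 0.05. T cell, B cell and natural killer cell markers had 0 of 6, 0 of 4 and 0 of 6 called by limma, and at an unadjusted p under 0.05 only 1 T cell marker was higher. A log2 scale after RMA has no zero, so no marker can be called absent. The part of these cells in the members' differences was not tested.

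**Figure D5:**
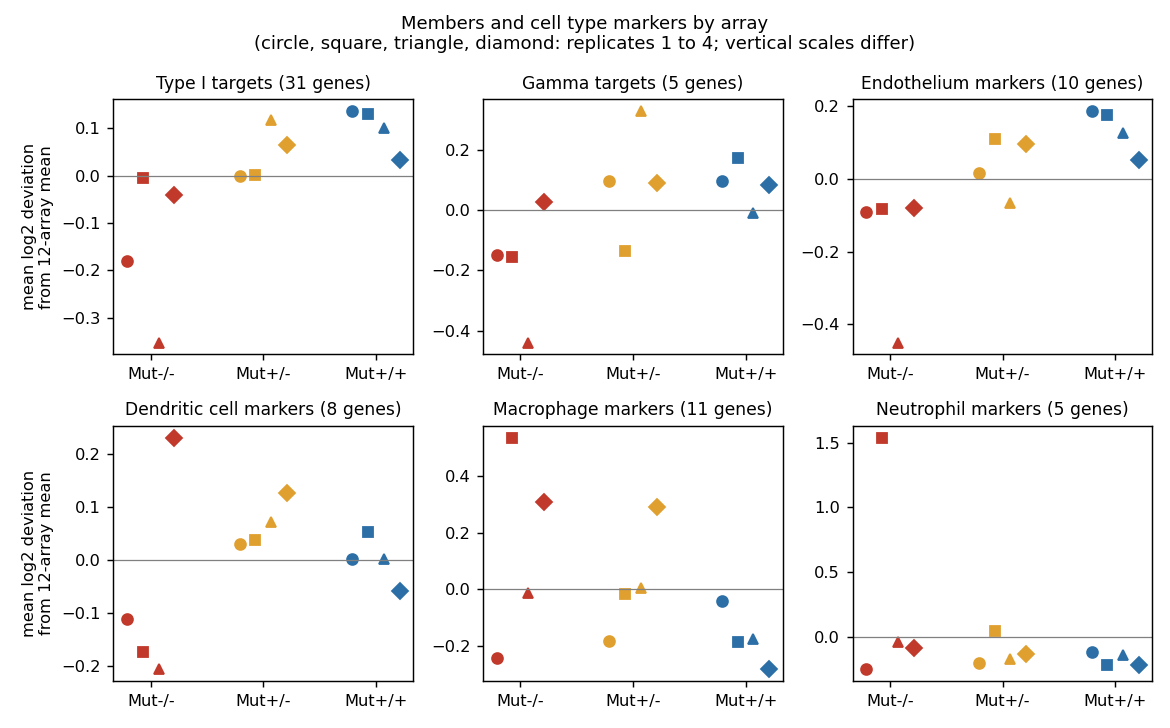
Mean deviation from the 12-array mean, on the log2 scale, of the type I targets, the gamma targets and 4 marker lists, 1 point per mouse by genotype. Mutant replicate 3 (triangle) is lowest among the type I targets (-0.35), the gamma targets (-0.44) and the endothelial markers (-0.45), and mutant replicate 2 (square) is highest among the neutrophil markers (1.54).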

How the data were processed

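RNA of whole kidney from 12 mice was read on 1 Affymetrix array each. One protocol text names a human array, but sample descriptions and probe set annotation are those of a mouse array. Per probe set the authors deposited log2 signals; the submitters' processing notes name Expression Console 1.2.1 and RMA. This method compresses differences near background. The table held 35552 probe sets and 0 missing values. Of these, 21785 had 1 gene symbol in the platform annotation, 1621 several and 12146 were not listed; 21694 of the symbols matched RefSeq names (GRCm38.p6) by Entrez identifier. Groups and replicate numbers came from the sample titles. That samples of a group came from separate animals is taken from the design text, which counts mice. The array order and genotype run together in the labels, so an effect of order cannot be told apart.

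The 40 members and all lists were chosen with earlier results of these data known. Tests used limma 3.58.1 (lmFit, eBayes) under R 4.3.3, with all 3 groups in 1 fit 9 residual degrees of freedom beside 4.41 from the prior, and Benjamini-Hochberg adjustment over 19934 genes. Genes with an adjusted p under 0.05 count as called. No test was made on a list as a whole. In simulated data of mutant against wild type over 19934 genes, 22 of 50 genes with a log2 change of 0.3 were recovered, 43 of 50 at 0.5, 49 of 50 at 1 and 49 of 50 at 2, and 8 unchanged genes were called. The simulation changed only these genes and drew independent noise for each gene. In the data 1925 genes were called and mutant replicate 3 stood apart, so these rates need not hold there.

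Values by array are given for members called in any comparison and, in a role group with none, for the member with the smallest p. From other lists called ligands, receptors, kinases and inhibitors are given, and Ifnb1 and Ifng. Of each further list up to 6 called genes with the largest absolute change are given. The other effectors called against wild type are named without their changes. A further gene the rule names is not reported here. Trim30a, Rsad2 and the marker genes were named after their values were seen. Alternatives were a replicate block, each array left out, a group mean of at least 6, array weights, averaging the probe sets of a gene, a robust trended prior, fits of the compared genotypes alone, equal medians, quantile normalization and a 1.2-fold minimum. Same-numbered samples did not pair: 1 of 12 correlations of their deviations was over 0.1. Figures used Python 3.11.15 and matplotlib 3.10.9.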

Additional observations from a re-analysis of the deposited data

Results flagged for a closer look

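Over 114 sets of 4 arrays, for the 36 members and both class means in each genotype, 6 held an array far from the other 3, where chance gives about 1 in 20. Gbp3 was low in mutant replicate 3, at 7.41 against 7.78 to 7.83 in the other mutants. Irf7 was low in heterozygote replicate 1, at 7.56 against 7.74 to 7.76. Stat2 was low in wild type replicate 4, at 8.09 against 8.23 to 8.24, and Mx2 in wild type replicate 3, at 5.26 against 5.52 to 5.55. In wild type replicate 2 Rsad2 was high, at 8.58 against 8.44 to 8.45, and Oas3 low, at 6.58 against 6.75 to 6.78. The call of Gbp3 held without mutant replicate 3.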

How the results depend on the processing

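Over the alternatives the count of members lower in mutants than in wild type stayed between 7 and 12 of 36, with 0 higher, and was 9 with the replicate block. It was 7 without wild type replicate 2 and 12 without mutant replicate 4. With only these 2 groups in the fit it was 8, where Irf7 (adjusted p = 0.0537) and Rtp4 (adjusted p = 0.0574) lost their calls and Xaf1 gained one (adjusted p = 0.0497). Against heterozygotes the count ran from 0 to 5 as arrays were left out, and was 0 with only the 2 groups compared and 2 with the replicate block. Heterozygotes against wild type gave 0 but for 1 with only those 2 groups. No array found its best correlation with its own replicate number (0 of 12), and the replicate block moved no count of members. Outside the members the block ended the calls of Ifngr2 (adjusted p = 0.0533) and Cd68 (adjusted p = 0.0527) against wild type and of Cmpk2 (adjusted p = 0.0506), Znfx1 (adjusted p = 0.0727) and Cxcl11 (adjusted p = 0.0727) against heterozygotes. Class medians stayed within the spread between arrays, from -0.21 to -0.12 for type I and -0.24 to -0.16 for gamma targets between mutant and wild type as arrays were left out, and from -0.20 to -0.08 and -0.27 to -0.11 between mutant and heterozygote.

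Some members turned sign. Between mutant and wild type, as arrays were left out, Dhx58 ran from -0.0553 to 0.0243, Cxcl9 from -0.5134 to 0.0459 (above 0 without mutant replicate 3), Mx1 from -0.0087 to 0.0893 and Oasl1 from -0.0113 to 0.0618. Lgals3bp came to 0.0042 after quantile normalization. Gbp3 between heterozygote and wild type ran from -0.1278 to 0.0591. The cause was not tested. Among further named genes, fits of 2 groups also ended the calls of Ifngr2, Mavs, Ifi203, Ifit3b, Slfn5, Clec9a, Csf1r, Cd68, Cdh5 and Eng against wild type (adjusted p from 0.0537 to 0.106). Against heterozygotes they ended those of Jak2, Herc6, Cmpk2, Znfx1, Cxcl11, Clec9a, Csf1r and Slc12a3 (adjusted p from 0.0529 to 0.119). The robust trended prior ended those of Ifi203, Slfn5, Cd68 and Lyz2 against wild type and of Csf1r against heterozygotes. Quantile normalization ended those of Ifi203, Slfn5, Clec9a and Eng against wild type and of Clec9a and Cxcl11 against heterozygotes. Equal medians ended those of Herc6, Znfx1 and Cxcl11 against heterozygotes. Array weights ended those of Clec9a against wild type and Cxcl11 against heterozygotes. Signal over background was not measured, and 2 members, Mx1 and Mx2, had no group mean of 6 or more, so little can be read from them.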
